A study of Mus musculus with 8 samples.

Results

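The genes described here are 10 markers of the macrophages that reside in tissue: Mrc1, Lyve1, Timd4, F13a1, Folr2, Mgl2, Stab1, Gas6, Pf4 and Cbr2. They were taken by symbol, out of 18820 genes tested, each from the probe set (a group of array probes for 1 gene) annotated to that symbol alone. Each of the 10 had 1 such probe set, and all 10 were measured. A second probe set that names Stab1 also names Nt5dc2 and was left out of the tests.

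Expression was measured on 8 arrays of epididymal fat, a visceral depot attached to the testis, from male C57BL/6 mice. There were 4 arrays of wild-type fat and 4 of fat from IL37 transgenic (IL37TG) mice, which overexpress the gene of human interleukin-37, a cytokine that restrains innate inflammation and has no known mouse counterpart. Both groups were first kept for 2 weeks on low-fat feed (10% of energy as fat) and then for 16 weeks on high-fat feed (45%), so there was no lean group. The labels give no age, do not name the promoter of the transgene, state that the wild-type mice were bought and do not call them littermates of the transgenic mice. They number the replicates without saying whether they are different animals; all p-values therefore reflect only how much these samples vary, which may be technical, and precision is limited by having 8 arrays. The comparison asks how the resident macrophage genes of fat differ between these transgenic and wild-type mice after high-fat feeding.

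Adipose macrophages include long-lived resident cells, many of which lie along blood vessels, and cells recruited from blood monocytes that gather around dying fat cells in obesity. The resident cells are known for uptake receptors: the mannose receptor (Mrc1), the scavenger receptor stabilin-1 (Stab1), the hyaluronan receptor Lyve1, the folate receptor Folr2 and the galactose lectin Mgl2. They also carry Timd4, a receptor for phosphatidylserine on dying cells. None of the 10 genes belongs to macrophages alone, as Lyve1 and Stab1 are also made by lymphatic and sinusoidal endothelium, Pf4 by platelets, Mgl2 by dendritic cells and Gas6 by many stromal cells. In whole tissue, fewer cells of a type and less RNA per cell cannot be told apart.

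Promoter sequences of 3 markers are shown because Timd4 had, after Mgl2, the largest positive difference between the groups (0.55 log2 units), and Mrc1 and Stab1 had the most negative ones (-0.37 and -0.38). The window of Mgl2 lies almost wholly inside its annotated gene and is not shown. They come from RefSeq (build GRCm38.p6), run 5′ to 3′ on the gene's own strand and end where the annotated gene begins. Capitals mark GAGGAA, the core that the macrophage factor PU.1 reads, and TGCTGA, the core letters of the MAF recognition element, or their reverse complements TTCCTC and TCAGCA.
Timd4, chr11:46810549-46810785, plus strand: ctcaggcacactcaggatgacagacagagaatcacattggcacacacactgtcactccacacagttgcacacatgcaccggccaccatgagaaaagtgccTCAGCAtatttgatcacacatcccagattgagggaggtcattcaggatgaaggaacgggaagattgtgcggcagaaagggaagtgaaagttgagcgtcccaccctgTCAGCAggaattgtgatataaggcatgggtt
Mrc1, chr2:14229164-14229413, plus strand: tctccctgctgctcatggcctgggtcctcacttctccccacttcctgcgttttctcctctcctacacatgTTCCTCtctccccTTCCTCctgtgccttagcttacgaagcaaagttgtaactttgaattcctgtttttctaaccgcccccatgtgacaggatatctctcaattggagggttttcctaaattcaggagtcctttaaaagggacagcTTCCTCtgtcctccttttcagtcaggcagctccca
Stab1, chr14:31168652-31168891, minus strand: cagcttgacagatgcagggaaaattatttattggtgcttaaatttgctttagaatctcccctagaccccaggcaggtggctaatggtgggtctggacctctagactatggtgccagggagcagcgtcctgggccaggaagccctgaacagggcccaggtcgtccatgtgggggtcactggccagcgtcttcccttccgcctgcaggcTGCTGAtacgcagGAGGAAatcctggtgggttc
Timd4 had 2 matches to the MAF core and none to the PU.1 core, Mrc1 had 3 PU.1 cores and no MAF core, and Stab1 had 1 of each. The PU.1 core was in 6 of 11 windows of 250 bases before a start of 9 markers, and in 23.3% of all 32851 such windows. The MAF core was in 4 of the 11, and in 16.1% of all. Some of the 11 windows run inside the annotated gene, where the PU.1 core of Mgl2 and 1 MAF core of Folr2 lie. Both strands were searched, the motifs can overlap at a shared GA but do not in these 3 sequences, and a match describes letters only.

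None of the 10 markers passed the threshold (limma, Benjamini-Hochberg adjusted p at most 0.05 over all genes), where 2.07% of all genes were higher and 1.27% lower. At an unadjusted limma p of 0.05, Mgl2 and Timd4 were higher and Mrc1 was lower, where 11.2% of all genes were higher and 9.42% lower. With the threshold set at an adjusted p of 0.1, Mgl2 and Timd4 were higher, as were 4.55% of all genes. The same 2 markers, Mgl2 and Timd4, had transgenic arrays entirely above the wild-type ones, as did 8.24% of all genes, and no marker had them entirely below, as did 5.73%. The markers did not share a direction: 4 had a higher transgenic mean (Mgl2, Timd4, Lyve1 and F13a1), where 55.3% of all genes did, and Gas6 was level. Their median difference, transgenic minus wild type, was -0.01 log2 units, beside 0.02 for all genes. Values below are log2 expression levels on single arrays, on which 1 unit is a doubling, and levels of different genes are not comparable because each has its own probes. 9 of the 10 markers had a mean above 8.58, the 75th percentile of gene means, and Timd4 lay near the middle, at the 44.7th percentile.

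**Figure D1:**
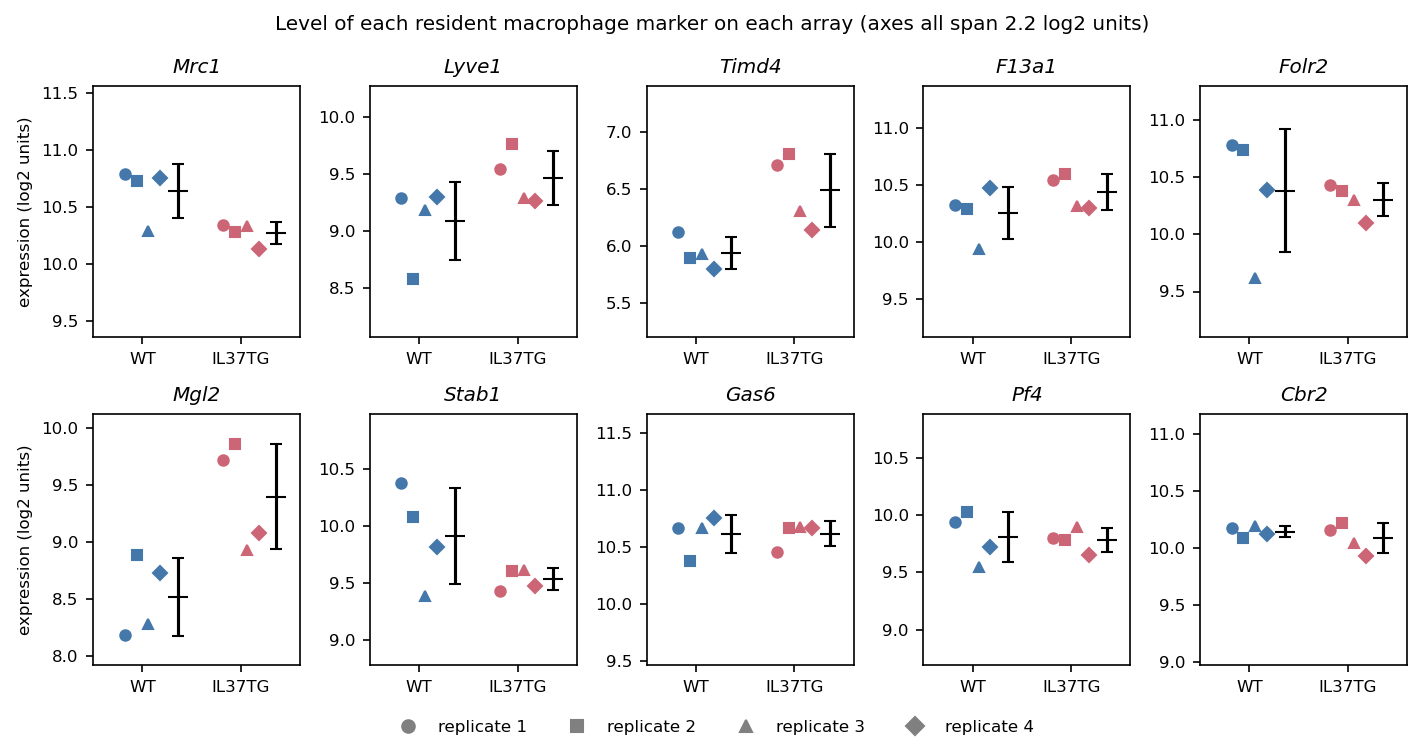
Level of each of the 10 markers on each array, in log2 units, with blue symbols for the 4 wild-type (WT) arrays, red symbols for the 4 transgenic (IL37TG) arrays and black bars for the mean and SD of each group. The groups do not overlap for Timd4 and Mgl2, and wild-type replicate 3 (triangle) is the lowest wild-type array for Mrc1, F13a1, Folr2, Stab1 and Pf4.

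Of the uptake receptors, Mgl2 had the largest difference of the 10 markers. Mgl2, a lectin that binds galactose-type sugars, measured 8.19, 8.89, 8.28 and 8.73 in wild-type replicates 1 to 4, and 9.72, 9.86, 8.93 and 9.08 in transgenic replicates 1 to 4. The groups did not overlap, though the lowest transgenic array lay only just above the highest wild-type one, and transgenic replicates 1 and 2 stood well above the other two. The means were 8.52 ± 0.34 and 9.40 ± 0.46 (SD, n = 4), a difference of 0.87 log2 units (SE 0.25, 95% interval 0.30 to 1.45, before adjustment) or 1.83-fold, with a limma adjusted p of 0.0984. The exact two-sided permutation p was 0.0286, the smallest that the 70 assignments of 8 arrays can give. When the dimmer genes, below the median gene, were left out of the test, Mgl2 passed (limma adjusted p = 0.0453). Clec10a, the close paralog of Mgl2 whose transcripts may be read by the same probes, measured 8.86, 8.95, 7.94 and 8.74 in wild-type and 8.72, 8.96, 8.91 and 8.76 in transgenic fat. Its groups overlapped, at a difference of 0.22 (limma adjusted p = 0.596).

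Because Mgl2 is also a gene of dendritic cells, the 12 dendritic cell genes are given beside it: 1 was higher and 2 lower past the threshold, with a median difference of -0.04. The mean of that list ran from 7.68 to 7.96 in wild-type and from 7.64 to 8.09 in transgenic fat. Ccl17, a chemokine of dendritic cells and alternatively activated macrophages, rose by 1.52 (SE 0.31, limma adjusted p = 0.0440), a call lost on removal of each of 6 arrays, singly; its highest values were, as for Mgl2, in transgenic replicates 2 (8.46) and 1 (7.70). Irf8, a factor that dendritic cells need, fell by 0.63 (limma adjusted p = 0.0309), as did Sirpa by 0.88 (limma adjusted p = 0.0416), and these calls were lost for 6 and 7 of the 8 single-array removals. Cd209a, a lectin of monocyte-derived dendritic cells, measured from 8.04 to 9.12 in wild-type and from 8.92 to 9.75 in transgenic fat (limma adjusted p = 0.0894). Defining genes of these cells lay on both sides of 0: Flt3, their growth factor receptor, differed by -0.20 (limma adjusted p = 0.474), and Zbtb46, a transcription factor of classical dendritic cells, by 0.20 with groups that did not overlap (limma adjusted p = 0.0656). Irf4, a factor of one dendritic cell branch and of macrophages, differed by 0.31, also without overlap (limma adjusted p = 0.139). The part of dendritic cells in the Mgl2 difference was not tested.

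Mrc1, the mannose receptor, measured 10.79, 10.73, 10.29 and 10.75 in wild-type and 10.34, 10.28, 10.33 and 10.13 in transgenic fat. Wild-type replicate 3 lay among the transgenic values, and the other 3 wild-type arrays lay above all 4 transgenic arrays. The difference was -0.37 (SE 0.12, 95% interval -0.63 to -0.10; limma adjusted p = 0.124; exact permutation p = 0.0857). Without wild-type replicate 3 it was -0.48 and passed (limma adjusted p = 0.0140), but a difference must widen when the wild-type array nearest to the transgenic ones is dropped. Mrc1 also passed when arrays were weighted by their agreement with their group (-0.41, limma adjusted p = 0.0379), which gave that array a weight of 0.553, the lowest of the 8.

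Stab1, a scavenger receptor that clears oxidised lipoprotein and matrix fragments, measured 10.38, 10.08, 9.39 and 9.82 in wild-type and 9.43, 9.61, 9.62 and 9.48 in transgenic fat. Wild-type replicate 3 was the lowest of all 8 arrays and wild-type replicates 1, 2 and 4 the highest. The wild-type arrays were more spread than the transgenic ones (SD 0.42 and 0.09, n = 4). The difference of -0.38 (SE 0.19, 95% interval -0.82 to 0.05) had a limma adjusted p of 0.297. Without wild-type replicate 3 it was -0.56, at the edge of the threshold but not past it (limma adjusted p = 0.05 after rounding). Dropping the lowest wild-type array must widen a negative difference. The probe set shared with Nt5dc2 measured 9.57, 9.87, 9.23 and 9.33 in wild-type and 8.93, 8.82, 9.12 and 8.80 in transgenic fat. There the groups did not overlap, with a difference of -0.58, but it cannot be given to either gene.

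Folr2, a receptor that takes up folate, measured 10.78, 10.74, 9.62 and 10.39 in wild-type and 10.43, 10.38, 10.30 and 10.10 in transgenic fat. All 4 transgenic arrays lay inside the wild-type range, and wild-type replicate 3 was again the lowest. The difference was -0.08 (SE 0.24, 95% interval -0.64 to 0.48; limma adjusted p = 0.888), and without wild-type replicate 3 it was -0.33 (limma adjusted p = 0.164). Of 9 measured genes of folate receptors and folate use, none passed (limma); 4 were lower at an unadjusted p of 0.05, and the median difference was -0.15. Slc46a1, the proton-coupled folate transporter, differed by -0.30 (limma adjusted p = 0.161).

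Lyve1, a hyaluronan receptor of perivascular macrophages and of lymphatic vessels, measured 9.29, 8.58, 9.18 and 9.30 in wild-type and 9.54, 9.76, 9.29 and 9.26 in transgenic fat. Transgenic replicates 1 and 2 were above every wild-type array, transgenic replicates 3 and 4 were level with wild-type replicates 1 and 4, and wild-type replicate 2 was far below the rest. The difference was 0.37 (SE 0.18, 95% interval -0.05 to 0.79; limma adjusted p = 0.293), and without wild-type replicate 2 it was 0.21 (limma adjusted p = 0.449). Lymphatic genes moved with that array: it had the lowest wild-type value of all 7 measured. Their mean ran from 5.46 to 7.32 in wild-type and from 6.21 to 7.78 in transgenic fat, none was past the threshold (limma; none at an unadjusted p of 0.05 either), and their median difference was 0.44. Prox1, the factor that defines lymphatic endothelium, measured 3.70 in wild-type replicate 2 and Mmrn1 3.83, beside 5.10 to 5.92 and 7.68 to 8.82 in the other wild-type arrays. The values 3.70 and 3.83 are dim, below 4.49, the 25th percentile of gene means. Transgenic replicate 1 had the lowest transgenic value for 6 of the 7 lymphatic genes, but the second highest Lyve1 level. Low values in wild-type replicate 2 were not particular to lymphatic genes. The mean of 9 mesothelial genes was 7.46 there, beside 7.99, 8.47 and 8.53 in wild-type replicates 1, 3 and 4. The part of lymphatic vessels in the Lyve1 values was not tested. Of 9 genes of hyaluronan metabolism, none passed (limma); 3 were lower at an unadjusted p of 0.05, and the median difference was -0.09.

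**Figure D2:**
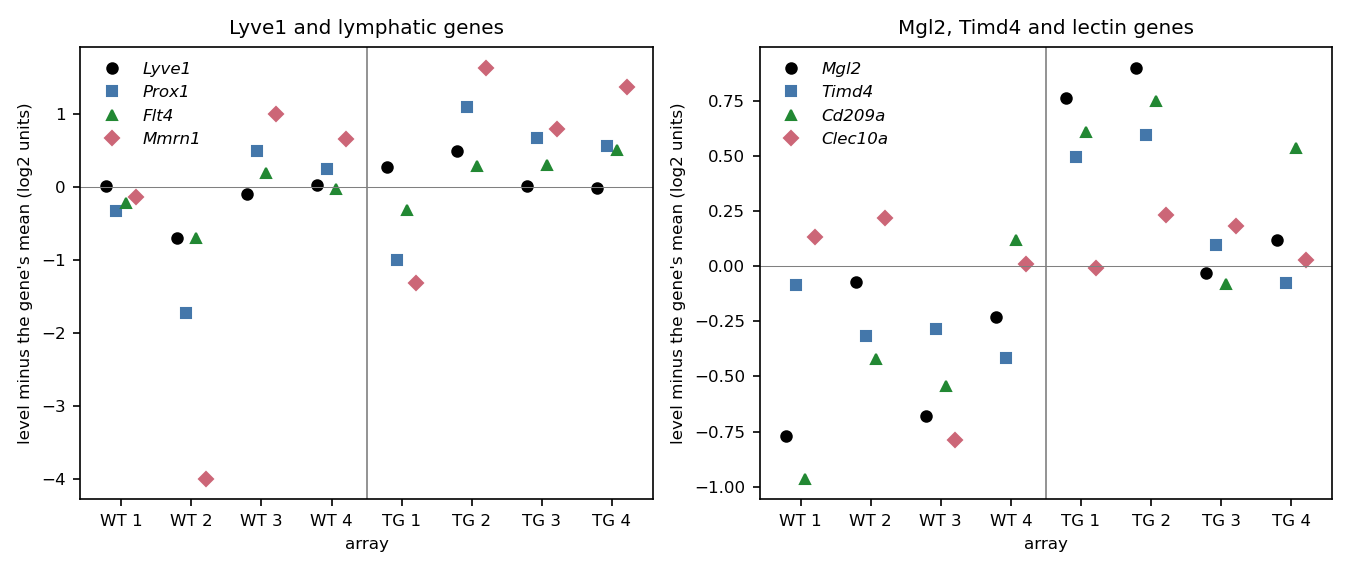
Level of each gene on each array minus that gene's mean over the 8 arrays, in log2 units, for Lyve1 with 3 lymphatic genes (left) and for Mgl2 and Timd4 with 2 lectin genes (right); the vertical line parts the wild-type (WT) from the transgenic (TG) arrays. Wild-type replicate 2 is low for Lyve1, Prox1, Flt4 and Mmrn1, and transgenic replicates 1 and 2 are highest for Mgl2, Timd4 and Cd209a.

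Of the proteins that clear dying cells, Timd4 was higher in transgenic fat without passing the threshold and Gas6 had the smallest difference of the 10 markers. Timd4, a receptor by which resident macrophages bind phosphatidylserine, measured 6.13, 5.90, 5.93 and 5.80 in wild-type and 6.71, 6.81, 6.31 and 6.14 in transgenic fat. The groups did not overlap, but transgenic replicate 4 was just above wild-type replicate 1. As for Mgl2, transgenic replicates 1 and 2 were the highest. The difference was 0.55 log2 units (SE 0.15, 95% interval 0.20 to 0.91) or 1.47-fold, with a limma adjusted p of 0.0942 and an exact permutation p of 0.0286. Array weights were low for transgenic replicates 4 and 3 (0.562 and 0.713), the lowest for Timd4 in that group. With these weights 724 of all genes were higher past the threshold, beside 390 without. Timd4 was among them (0.66, limma adjusted p = 0.0326). Of its 3 measured relatives none passed (limma; 1 lower at an unadjusted p of 0.05): Havcr2, which encodes TIM-3, measured 5.80 to 6.81 in wild-type and 5.41 to 5.70 in transgenic fat, a difference of -0.81 (limma adjusted p = 0.0683), and Havcr1 and Timd2 had means below 4.49, the 25th percentile of gene means.

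Gas6, the secreted protein that bridges dying cells to TAM receptors, measured 10.67, 10.38, 10.67 and 10.76 in wild-type and 10.46, 10.67, 10.68 and 10.67 in transgenic fat. 3 arrays of each group lay close together and 1 array of each, wild-type replicate 2 and transgenic replicate 1, lay lower. The difference was 0.00 (SE 0.09, limma adjusted p = 0.999), with a 95% interval of -0.22 to 0.22. Its receptors Axl, Tyro3 and Mertk differed by -0.17, 0.02 and 0.04 (limma adjusted p = 0.387, 0.932 and 0.862). Of 7 genes in a list of TAM receptors, their ligands and related genes none passed (limma), with a median of -0.03. The 2 that were lower at an unadjusted limma p of 0.05 were Mfge8 and Socs3, neither of them a TAM receptor. Mfge8, another bridging protein, measured 11.71 to 12.07 in wild-type and 11.13 to 11.77 in transgenic fat, with transgenic replicate 3 alone inside the wild-type range (-0.50, limma adjusted p = 0.116). Of 19 further genes of dying-cell clearance 1 rose and 1 fell, with a median of -0.04. Gulp1, an engulfment adaptor, rose by 0.42 (SE 0.07, limma adjusted p = 0.0264), and Itgav, the integrin chain that binds Mfge8, fell by 0.49 (SE 0.07, limma adjusted p = 0.0170). The Gulp1 call was lost for 7 of the 8 single-array removals, and that of Itgav for 3 (wild-type replicates 1, 2 and 4).

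Of the secreted products and enzymes, F13a1 encodes the clotting transglutaminase factor XIII-A. It measured 10.33, 10.29, 9.94 and 10.48 in wild-type and 10.55, 10.60, 10.32 and 10.30 in transgenic fat. Wild-type replicate 3 was the lowest and transgenic replicates 1 and 2 the highest, and the other arrays were mixed. The difference was 0.18 (SE 0.13, 95% interval -0.10 to 0.47; limma adjusted p = 0.450), and 0.08 without wild-type replicate 3. Of 17 measured coagulation and transglutaminase genes 2 rose and none fell, with a median difference of 0.01. Thbd, thrombomodulin, an anticoagulant receptor, measured 8.76, 8.79, 8.84 and 8.88 in wild-type and 9.99, 9.96, 9.58 and 9.86 in transgenic fat. These groups were well apart, at 1.03 log2 units (SE 0.09, limma adjusted p = 0.00535), and the call held whichever array was left out. It was lost with the letter of the array name as a block. That difference, 1.13, rested on 2 wild-type arrays and 1 transgenic array. F5, coagulation factor V, rose by 0.51 (SE 0.10, limma adjusted p = 0.0431), a call lost on removal of each of the 8 arrays.

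Pf4, a chemokine of platelets and resident macrophages, measured 9.94, 10.03, 9.55 and 9.72 in wild-type and 9.80, 9.78, 9.90 and 9.65 in transgenic fat. The transgenic arrays lay inside the wild-type range, and the difference was -0.03 (SE 0.11, 95% interval -0.28 to 0.23; limma adjusted p = 0.918). Of 6 measured platelet genes none passed (limma; 2 higher and 1 lower at an unadjusted p of 0.05); their mean ran from 5.65 to 5.95 in wild-type and from 5.93 to 6.11 in transgenic fat. Ppbp, the platelet chemokine beside Pf4 in function, differed by 0.46 (limma adjusted p = 0.201). Of 12 genes of CXC chemokines and a receptor of them, only Cxcl12, which retains leukocytes in tissue, passed. It fell by 0.48 (SE 0.10, limma adjusted p = 0.0440), a call lost for 7 of the 8 single-array removals. At an unadjusted limma p of 0.05, 2 of the 12 were higher and 5 lower, and the median was -0.24.

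Cbr2, a carbonyl reductase, measured 10.17, 10.09, 10.19 and 10.12 in wild-type and 10.16, 10.22, 10.04 and 9.93 in transgenic fat. It was the least variable of the wild-type groups (SD 0.04, n = 4), and the transgenic arrays lay on both sides of the wild-type range. The difference was -0.05 (SE 0.07, 95% interval -0.22 to 0.12; limma adjusted p = 0.723). None of 5 related reductase genes passed (limma; none at an unadjusted p of 0.05), with a median of 0.15.

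**Figure D3:**
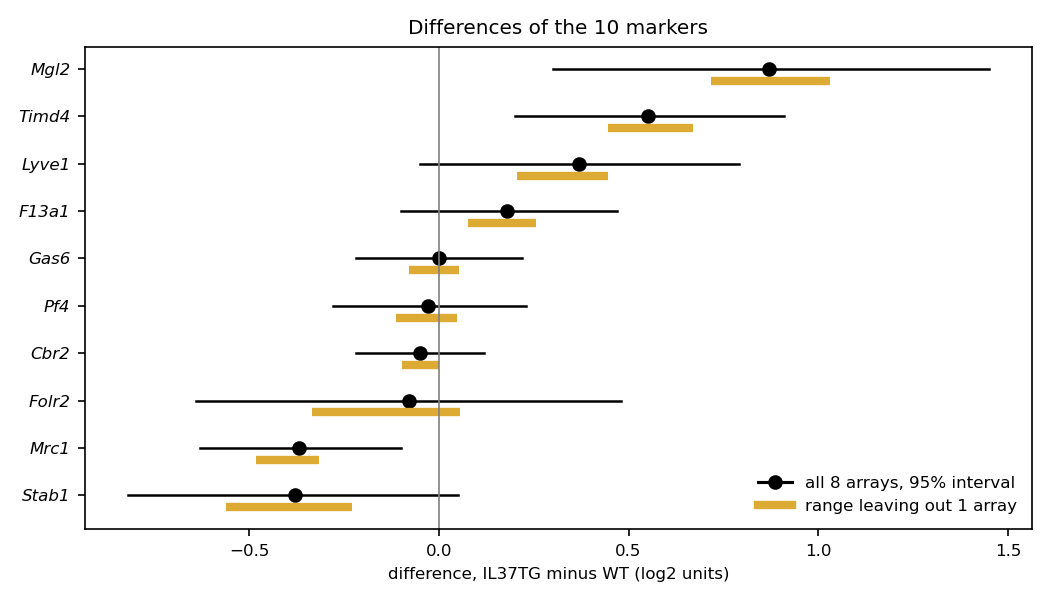
Difference of each marker, transgenic minus wild type, in log2 units; points and black lines are the value and unadjusted 95% interval from all 8 arrays, and yellow bars span the values with 1 array left out. The interval lies above 0 for Mgl2 and Timd4, below 0 for Mrc1 and across 0 for the other 7 markers.

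Further genes of resident macrophages, a list that leaves out the 10 markers, moved in both directions: 6 of 25 measured rose and 1 fell, with a median difference of 0.06. At an unadjusted limma p of 0.05, 8 of the 25 were higher and 4 lower. The list is not independent evidence, since results of these samples were known when it was written. Ccl24, a chemokine for eosinophils made by tissue macrophages, measured 6.61, 6.61, 6.39 and 6.59 in wild-type and 8.00, 7.56, 7.44 and 7.32 in transgenic fat, a 2.05-fold difference (log2 1.03, SE 0.14, limma adjusted p = 0.0149). The lectins Cd209f and Cd209g, which mark perivascular macrophages, rose by 0.89 (SE 0.14, limma adjusted p = 0.0206) and 0.92 (SE 0.19, limma adjusted p = 0.0431). Their relative Cd209d measured 8.96 to 9.85 in wild-type and 9.75 to 10.35 in transgenic fat (limma adjusted p = 0.0890). Fcgrt, the recycling receptor of antibodies, rose by 0.42 (SE 0.07), Retnla, a secreted product of alternatively activated macrophages, by 1.33 (SE 0.13), and Cd163, the haemoglobin scavenger receptor, by 0.77 (SE 0.12; limma adjusted p = 0.0212, 0.00535 and 0.0212). Hmox1, the haem-degrading enzyme, measured 9.78, 9.77, 9.48 and 9.57 in wild-type and 8.91, 8.80, 8.89 and 8.88 in transgenic fat, and fell by 0.78 (SE 0.08, limma adjusted p = 0.00535). Vsig4, a complement receptor of resident macrophages, differed by -0.74 (limma adjusted p = 0.118). Its groups only just did not overlap, at 7.85 to 8.85 in wild-type and 7.33 to 7.84 in transgenic fat. Siglec1, the sialic acid receptor of tissue macrophages, differed by -0.55 (limma adjusted p = 0.260). When single arrays were removed, Retnla and Hmox1 never lost their calls, but both lost them with the letter block (limma adjusted p = 0.104 and 0.0818). The call of Ccl24 was lost for 3 arrays (transgenic replicate 2 and wild-type replicates 1 and 4), those of Cd163, Cd209f and Fcgrt for 4 each and that of Cd209g for 6. Of 18 endocytic and scavenger lectin receptor genes Cd163 rose and none fell, with a median of -0.09; Msr1, the scavenger receptor A of macrophages, differed by -1.01 (limma adjusted p = 0.0801).

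Among general macrophage genes, 18 of 18 had lower transgenic means, 2 of them (Fcgr1 and Cx3cr1) past the threshold, with a median of -0.63, where the median of the 10 markers was -0.01. Those 2 calls were lost for 7 and 6 of the 8 single-array removals. Their mean ran from 9.01 to 9.96 in wild-type and from 8.62 to 9.06 in transgenic fat, and wild-type replicate 3 had the lowest wild-type value for 18 of 18 of them and for 5 of the 10 markers. Of 14 lipid-associated macrophage genes 3 fell and none rose (Trem2, Ctsk and Cd63; median -0.69), and of 7 monocyte and recruitment genes none passed (limma; 4 lower at an unadjusted p of 0.05; median -0.32). The calls of Trem2, Ctsk and Cd63 were lost for 7, 7 and 6 of the single-array removals, and those of Fcgr1, Ctsk and Cd63 also after arrays were centred on their medians. With the mean of the general macrophage genes subtracted on each array, all 10 markers had a higher transgenic mean, by 0.29 for Stab1, 0.30 for Mrc1, 0.59 for Folr2 and up to 1.55 for Mgl2, and 6 had groups that did not overlap. The same subtraction gave a higher mean for 97.5% of all genes and transgenic arrays entirely above for 35.4% (entirely below for 0.329%), so it does not set the markers apart from other genes of the tissue. Other cells of fat are given as list means, with wild-type and transgenic ranges of 11.91 to 12.04 and 12.10 to 12.18 for 10 adipocyte genes, each above the 75th percentile of gene means. These ranges were 9.96 to 10.12 and 9.89 to 10.20 for 10 fibroblast genes, 9.91 to 10.08 and 10.00 to 10.21 for 11 blood endothelial genes, 7.46 to 8.53 and 7.95 to 8.54 for 9 mesothelial genes and 6.50 to 6.92 and 6.31 to 6.68 for 12 T, B and mast cell genes. No gene of these lists but 2 of adipocytes, Adipoq and Slc2a4, was past the threshold, and these calls were lost for 7 and 4 of the single-array removals. Their part in the differences of the markers was not tested.

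**Figure D4:**
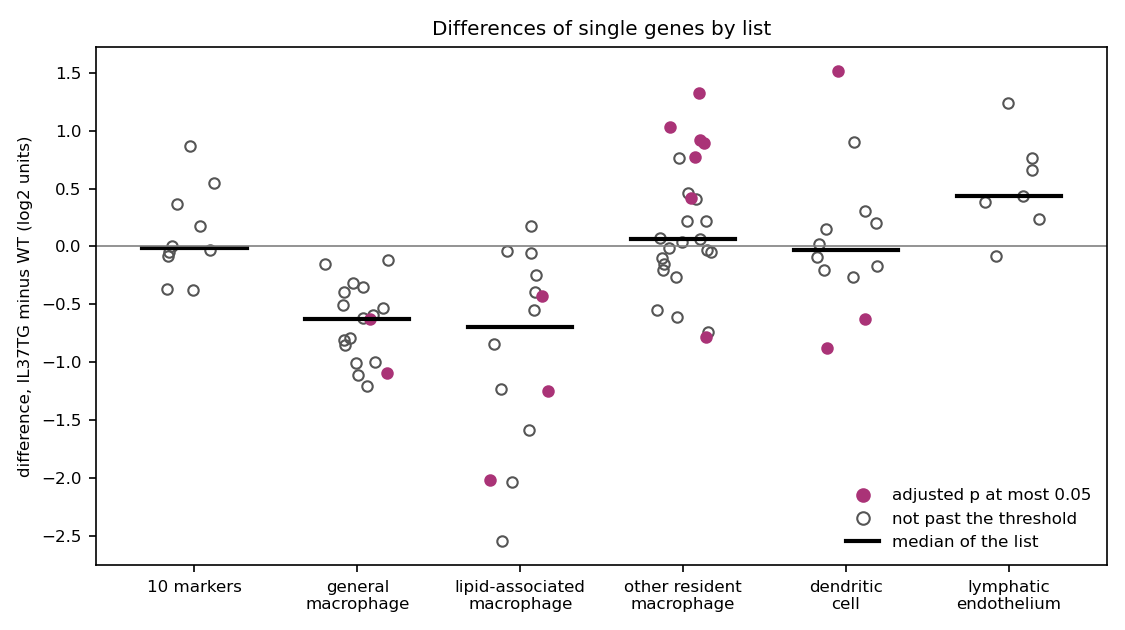
Difference of each gene, transgenic minus wild type, in log2 units, for the 10 markers and for 5 further lists; filled points are past the threshold and bars are medians. The markers centre near 0 (-0.01), general and lipid-associated macrophage genes at -0.63 and -0.69, and the other resident genes at 0.06 with members far out on both sides.

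Each array name holds a letter and a number of unstated meaning, and these were spread unevenly over the groups. Within arrays numbered 5, 7 and 9, each with at most 3 arrays, Mgl2 differed by 1.58, 0.47 and 0.51, Timd4 by 0.88, 0.35 and 0.52, and Mrc1 by -0.01, -0.44 and -0.49. The signs for Mgl2 and Timd4 were fixed by groups that did not overlap. Within letter G, the 1 letter with both groups (2 wild-type arrays and 1 transgenic array), the differences were 1.21, 0.84 and -0.18. Folr2 differed by 0.77, -0.28 and -0.47 within numbers and by 0.43 within letter G. Lyve1 differed by 0.58, -0.01 and 0.82, and by 0.30 within letter G. Of the 22 genes of the other lists past the threshold, 1 (Ccl24) stayed past it with the letter as a block and 3 (Retnla, Hmox1 and Thbd) with the number as a block.

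The profiles of the markers over the 8 arrays were compared as the root mean square difference of log2 levels, each centred on the gene's own mean, a description with no test. Mrc1 was most like Mgat5 (0.0454), Rab11fip5 (0.0489) and Sgpl1 (0.0514), where its own spread around its mean was 0.240. Timd4 was most like Rnu5g (0.0812), Smim11 (0.142) and Atp5e (0.143; own spread 0.348), and Mgl2 like Klri1 (0.221), Fcrls (0.225) and Abcg4 (0.231; own spread 0.561). Lyve1 was most like P3h4 (0.0948), Eif2s3y (0.127) and S100b (0.140), Stab1 like Uap1l1 (0.0797), Ccr1l1 (0.0996) and Arap1 (0.103), and Folr2 like Sbk2 (0.0938), 4931406H21Rik (0.110) and Trerf1 (0.128). F13a1 was most like Gjb5, Mir30c-1 and S100a7a (0.0498 to 0.0641), Gas6 like Prokr1, Filip1 and Fntb (0.0475 to 0.0595), Pf4 like Olfr726, Zmiz1 and Serpinb1c (0.0432 to 0.0492), and Cbr2 like Isy1, Ptpn9 and Tomm22 (0.0327 to 0.0359). No marker had another of the 10 among its 3 nearest genes. The nearest fellow marker of Mgl2 was Timd4, at place 89 of all genes, and that of Stab1 was Mrc1, at place 125.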

How the data were processed

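Log2 expression values per probe set were deposited by the authors for 8 arrays, and per the submitters' processing notes they were made with RMA, which corrects background, equalises array distributions and combines probes. Its settings, version and array annotation are not given in the sources used here. Equalised arrays hide a shift shared by most genes, and dim probe sets understate differences. Array medians lay between 5.97 and 6.04. Of 35556 probe sets, 21218 had 1 gene symbol, 1881 several and 12457 none in the annotation used. The brightest probe set per gene was kept, which left 18820 genes.

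The transgenic and wild-type arrays entered a 2-group linear model (limma 3.58.1, lmFit then eBayes, under R 4.3.3) without a filter on dim genes; tests were two-sided and p-values Benjamini-Hochberg adjusted, with 0.05 as the threshold. Marker lists are described by counts and medians. The markers and lists were chosen with earlier results of these data known. Genes were named from the 10 markers, the 2 of each list with the lowest p, those past the threshold, and the 3 most alike per marker; others, chosen after their values were seen, are Clec10a, Cd209a, Cd209d, Flt3, Zbtb46, Irf4, Axl, Tyro3, Mertk, Havcr1, Mmrn1, Vsig4 and Siglec1. In simulated data of 18820 genes, 74% of 50 genes changed by 0.5 log2 units and 90% of 50 changed by 1 were called, with 12 false calls. These data had the same groups but independent normal noise of equal size in both groups. The real arrays share shifts across genes, and some markers vary unequally between the groups. The shares called are therefore not detection rates for the markers. Alternatives were other scalings, filters, probe set rules, priors, array weights, blocks and left-out arrays. Protein sequences were not used here. Figures used matplotlib 3.10.9.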

Additional observations from a re-analysis of the deposited data

Results flagged for a closer look

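A single array stood far apart in 16 of 218 groups of 4 arrays (7.34%) formed by the markers, named genes and lists; by chance about 1 in 20 would. Values are log2 levels. Among the markers these were Mrc1 in wild-type replicate 3 (10.29, next 10.73), Lyve1 in wild-type replicate 2 (8.58, next 9.18) and Gas6 in transgenic replicate 1 (10.46, next 10.67).

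Wild-type replicate 3 also stood below the other wild-type arrays for Atp5e (8.67), Ccl24 (6.39) and Mgat5 (8.43), and wild-type replicate 2 for Eif2s3y (8.91), Fntb (7.55) and P3h4 (6.13). Atp5e, Mgat5, Eif2s3y, Fntb and P3h4 were named because their profiles are like those of markers. Retnla was low in wild-type replicate 1 (10.26). Mfge8 was high in transgenic replicate 3 (11.77) and Plac8 low in transgenic replicate 4 (5.48). Among list means, the general macrophage genes were low in transgenic replicate 4 (8.62), the fibroblast genes high in transgenic replicate 2 (10.20), the mesothelial genes low in transgenic replicate 3 (7.95) and the T, B and mast cell genes low in transgenic replicate 1 (6.31).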

How the results depend on the processing

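Of 199 recomputed marker differences, 177 kept their direction and their side of the threshold, 5 passed it and 17 changed sign. Some of the 199 could not change direction. With other probe set rules, filters on dim genes, another prior or the replicate block, each marker difference stayed the same by construction. Only the p-values could move in those settings. The 5 were Mgl2 among genes at or above the median gene, Timd4 with array weights, and Mrc1 in 3 settings: array weights, removal of wild-type replicate 3, and removal of that array together with transgenic replicate 4, the last chosen after seeing the data. The number of markers past the threshold was thus 1 higher and 1 lower with array weights, 1 higher among genes at or above the median gene, 1 lower without those 2 arrays and from 0 to 1 lower on leaving out 1 array. It was 2 higher at an adjusted p of 0.1 and 2 higher by the unadjusted exact permutation. Timd4 lies below the median gene, so it was not tested there.

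The markers that changed sign lay near 0. With the letter of the array name as a block, Folr2 was 0.43, Gas6 -0.26, Pf4 0.17 and Cbr2 0.0058. Gas6 was -0.047 with array weights and -0.019 after a second quantile normalization, and Cbr2 was 0.015 without the 2 arrays. Leaving out 1 array, Folr2 ran from -0.33 to 0.056, Gas6 from -0.080 to 0.054, Pf4 from -0.11 to 0.047, Cbr2 from -0.099 to 0.0002 and Timd2 from -0.0087 to 0.098. Other genes that changed sign with the letter block were Cbr1 (-0.027), Csf1 (0.0035), Flt4 (-0.39), Hsd11b1 (-0.046), Prox1 (-1.36) and Vwf (-0.10). With the letter as a block, each difference was that within letter G alone, from 2 wild-type arrays and 1 transgenic array. The cause of the other sign changes was not tested.

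Over all genes, the counts higher and lower, 390 and 239, were 10 and 60 with the letter block, 44 and 28 with the number block, 724 and 539 with array weights and 741 and 554 among genes at or above the median gene. Without the 2 arrays 491 were lower, and leaving out 1 array the counts ran from 50 to 520 higher and from 32 to 668 lower. With the replicate number as a block they were 40 and 53, and no marker changed its side of the threshold; of the 22 called genes of the other lists, Ccl24, Cx3cr1, Hmox1, Retnla and Thbd kept their calls. The labels do not say that the numbers pair the samples, and deviations of same-numbered arrays correlated at 0.06 to 0.10 across genes.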
